A study of Homo sapiens with 6 samples.

Results

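Keratins are the intermediate filament proteins of epithelial cells, and 9 of their genes (KRT5, KRT7, KRT8, KRT15, KRT17, KRT18, KRT19, KRT23 and KRT80) were followed on arrays of cells given an shRNA against SHCBP1. The genes were taken from a named list, and a gene had values where at least 1 probe set of the array was annotated with that symbol and no other. That held for 8 of the 9 genes, with 17 probe sets, among 18132 genes on the arrays. KRT17 had no such probe set and is not analysed here. The 6 Affymetrix arrays came from 3 samples with control shRNA and 3 with SHCBP1 shRNA, each shRNA carried by a lentivirus, in cells kept in RPMI medium with fetal bovine serum. SHCBP1 encodes a partner of the adaptor SHC1, and the comparison asks what differs when it is knocked down. The labels give the cells as TPC-1, a papillary thyroid carcinoma line, but the extraction text speaks of DLD1, a colorectal carcinoma line. No second shRNA against SHCBP1 and no rescue is named among the samples, and an effect of losing SHCBP1 cannot be told apart from any other effect of this shRNA. Separate cultures are not stated, so the p-values cover the spread among these 6 samples only, and that spread may be technical.

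Keratin filaments are built from pairs, each of a type II (basic) and a type I (acidic) chain. KRT8 with KRT18 is the founding pair of simple, single-layered epithelia, including thyroid follicle and gut, and KRT7 and KRT19 join them in many glands and ducts. KRT5 belongs to the basal layer of stratified epithelia, where KRT14, KRT15 and KRT17 also occur. The chains are unstable without a partner, and the filaments are tied to desmosomes and hemidesmosomes by plakin proteins.

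SHCBP1 fell by 1.54 ± 0.06 (SE) on the log2 scale in the SHCBP1 shRNA arrays. Each deposited value is on the log2 scale, with the probe set's own median across the arrays set to 0, and it compares arrays without giving an expression level. Whether a keratin, or any marker of thyroid or intestine, was present could therefore not be read from these values. Probe sets of the poly-A spike-in controls, which are added before labelling, were higher by 0.43 ± 0.04 log2 (SE) in the SHCBP1 shRNA arrays. Every difference below is therefore relative to the other transcripts on the arrays, and scaling to those controls lowers each gene by 0.43. The cells are bulk samples, so fewer cells that express a gene and less RNA per cell cannot be told apart.

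The 8 keratins moved in both directions. KRT8, KRT19 and KRT18 of simple epithelia were lower in the SHCBP1 shRNA arrays, by 1.78-fold, 1.48-fold and 1.32-fold. KRT15 and KRT80 were higher, by 1.77-fold and 1.45-fold, and KRT5, KRT7 and KRT23 did not pass the test. Thus 5 of 8 passed (limma, Benjamini-Hochberg adjusted p under 0.05 over all genes), 2 higher and 3 lower, where 41% of all genes passed, 22% higher and 19% lower. The 3 arrays of one group lay wholly above the 3 of the other for the same 5 genes, as they did for 50% of all genes. With so many genes called across the arrays, the count of keratins is not a result by itself. The median difference was -0.0033 over the 8 keratins and 0.02 over all genes. With scaling to the spike-in controls 1 of the 8 was higher and 6 were lower, where 2.43% of all genes were higher and 89.7% lower, and these are the shares to set beside each gene list's count under that scaling.

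**Figure D1:**
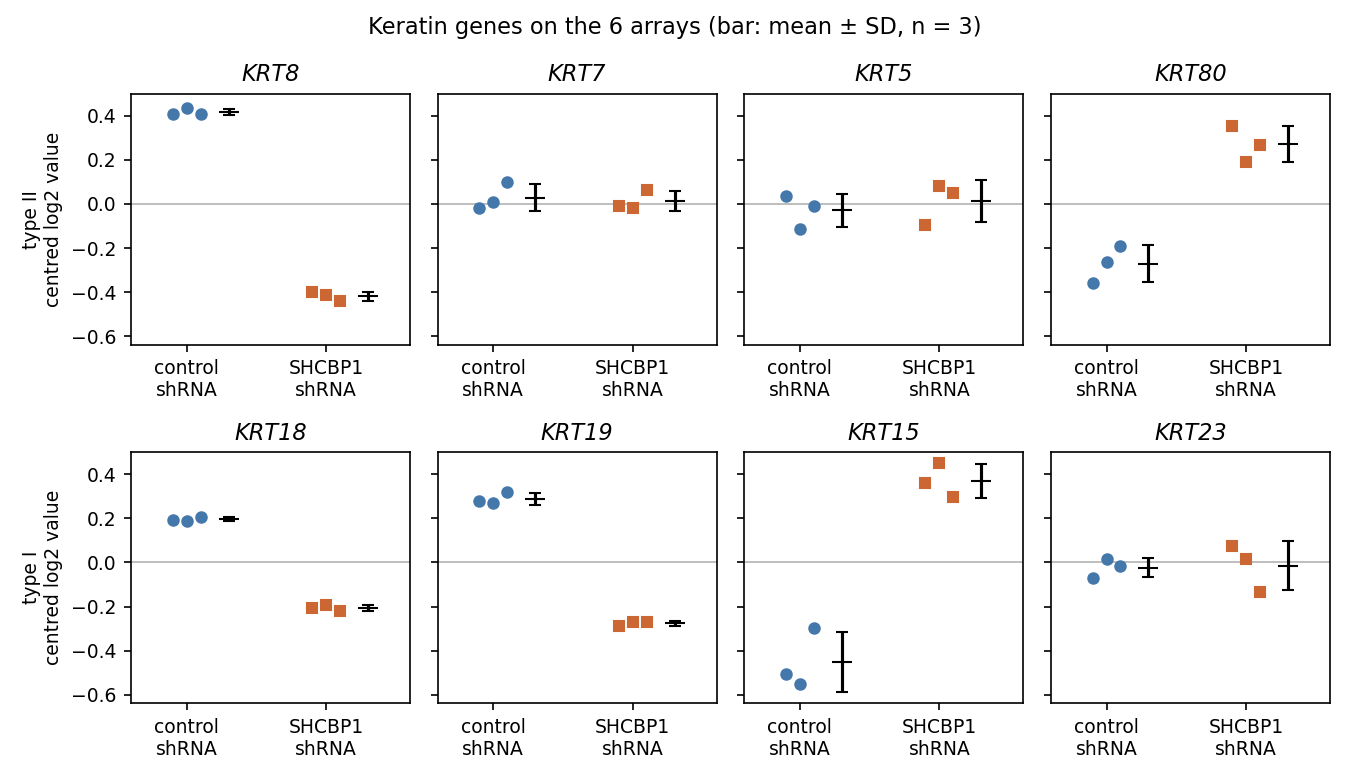
Centred log2 value of each keratin gene on each array (y axis), with the control shRNA arrays as circles, the SHCBP1 shRNA arrays as squares, and the mean ± SD of 3 arrays beside them; type II genes are in the upper row and type I genes in the lower. The groups are apart for KRT8, KRT80, KRT18, KRT19 and KRT15 and overlap for KRT7, KRT5 and KRT23; values are relative to other genes, and with spike-in scaling only KRT15 keeps a rise that passes the test.

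KRT8 (Entrez Gene 3856), the type II chain of simple epithelia, had the largest fall of the 8, close in size to the rise of KRT15. Its centred log2 values, the mean of 8 probe sets, were 0.41, 0.43 and 0.41 with control shRNA and -0.40, -0.41 and -0.44 with SHCBP1 shRNA. All control arrays were high and all knockdown arrays low, with spreads that were small beside the gap (SD 0.015 and 0.02, n = 3 each). The log2 difference was -0.84 ± 0.03 (SE, 95% interval -0.91 to -0.76; limma, Benjamini-Hochberg adjusted p = 1.71e-06). In size it exceeded the difference of 97.8% of all genes.

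Each of the 8 KRT8 probe sets fell on its own. Their log2 differences ran from -0.96 to -0.72, and the largest of their adjusted p-values was 2.55e-05 (limma with Benjamini-Hochberg adjustment over all probe sets). Over these probe sets the control values lay between 0.35 and 0.57 and the SHCBP1 shRNA values between -0.58 and -0.35. All 8 names end in _x_at, which marks probes that can also bind other transcripts, and RefSeq lists 52 pseudogenes named for KRT8. The probe sets may share probes and target 1 gene, so they are not 8 independent measurements, and the part of the pseudogenes in the signal was not tested.

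KRT18 (Entrez Gene 3875), the type I partner of KRT8, fell less. Its values were 0.19, 0.19 and 0.21 with control shRNA and -0.21, -0.19 and -0.22 with SHCBP1 shRNA, again without overlap. The log2 difference was -0.40 ± 0.03 (SE; limma, Benjamini-Hochberg adjusted p = 3.37e-05). Its 2 probe sets both gave -0.40, and both end in _x_at. RefSeq lists 68 pseudogenes named for KRT18, of which KRT18P55 has a probe set annotated to it on the array. That probe set, named here after its value was seen, also fell, with a log2 difference of -0.63 ± 0.05 (SE; limma, Benjamini-Hochberg adjusted p = 7.63e-05 over all probe sets). Its name ends in _x_at as well, so it can also bind other transcripts. Whether it read KRT18 itself was not tested.

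The partner chains were compared within each array, where a scaling of the whole array cancels. KRT8 minus KRT18 was 0.22, 0.25 and 0.20 with control shRNA and -0.19, -0.22 and -0.22 with SHCBP1 shRNA. The KRT8 signal relative to the KRT18 signal was thus lower in every knockdown array than in any control array, by a mean of 0.43 on the log2 scale. All probe sets of both genes end in _x_at, and a ratio of the transcripts themselves was not measured. KRT8 also fell further than KRT19, by 0.27, and KRT19 further than KRT18, by 0.16. KRT15 rose further than KRT80, by 0.28. KRT15 minus KRT80 was -0.15, -0.29 and -0.11 with control shRNA and 0.01, 0.26 and 0.03 with SHCBP1 shRNA. Each of these splits has an exact two-sided permutation p = 0.1, which is the smallest that 3 arrays against 3 can give (0.1 after Benjamini-Hochberg adjustment over the 5 pairs compared). This permutation test cannot pass a threshold of 0.05 with 3 arrays against 3, and no other test of these within-array differences was run.

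KRT19 (Entrez Gene 3880), the small type I keratin of ducts and simple epithelia, is a widely used immunostain in papillary thyroid carcinoma. The single probe set gave 0.28, 0.27 and 0.32 with control shRNA and -0.29, -0.27 and -0.27 with SHCBP1 shRNA. The groups did not overlap, and the log2 difference was -0.56 ± 0.03 (SE; limma, Benjamini-Hochberg adjusted p = 9.37e-06). Its probe set ends in _a_at, a name given to probes for several transcripts of 1 gene. KRT19 was thus the fall that did not rest on _x_at probe sets. RefSeq lists 5 pseudogenes named for KRT19, and their part in its signal was not tested. When probe sets of the _s_at and _x_at kinds were left out, KRT8 and KRT18 had no value and KRT19 was the 1 keratin called lower.

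KRT15 (Entrez Gene 3866), a type I keratin of basal cells and of the hair follicle stem cell region, moved the other way. Its values were -0.51, -0.55 and -0.30 with control shRNA and 0.36, 0.45 and 0.30 with SHCBP1 shRNA. All knockdown arrays were above all control arrays, and the control spread (SD 0.13, n = 3) was the widest in that group among the 8. The log2 difference was 0.82 ± 0.07 (SE; limma, Benjamini-Hochberg adjusted p = 7.27e-05). With spike-in scaling it was 0.39 (limma, Benjamini-Hochberg adjusted p = 0.000206), the only rise among the 8 that still passed.

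KRT80 (Entrez Gene 144501), a type II keratin found in many epithelia, was the other rise. Its values were -0.36, -0.26 and -0.19 with control shRNA and 0.35, 0.19 and 0.27 with SHCBP1 shRNA. The groups were apart, with a log2 difference of 0.54 ± 0.06 (SE; limma, Benjamini-Hochberg adjusted p = 0.000202). With spike-in scaling the difference was 0.11 and did not pass (limma, Benjamini-Hochberg adjusted p = 0.175). KRT15 and KRT80 each rest on 1 probe set ending in _a_at.

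KRT7 (Entrez Gene 3855), the type II keratin of glands and ducts, did not fall with KRT8 relative to the other transcripts. Its values were -0.02, 0.01 and 0.10 with control shRNA and -0.01, -0.02 and 0.06 with SHCBP1 shRNA, which overlap. The log2 difference was -0.02 with a 95% interval from -0.12 to 0.09 (limma, Benjamini-Hochberg adjusted p = 0.822). That interval does not reach the fall of KRT8, KRT18 or KRT19. With spike-in scaling the difference of KRT7 was -0.45 and passed (limma, Benjamini-Hochberg adjusted p = 3.59e-05), where that of KRT8 was -1.27.

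KRT5 (Entrez Gene 3852), the type II chain of basal cells, gave 0.03, -0.11 and -0.01 with control shRNA and -0.10, 0.08 and 0.05 with SHCBP1 shRNA. The groups overlapped, with a difference of 0.04 (95% interval -0.10 to 0.18; limma, Benjamini-Hochberg adjusted p = 0.646), and its 2 probe sets differed in sign, at -0.07 and 0.15. KRT23 (Entrez Gene 25984), a type I keratin, gave -0.07, 0.02 and -0.02 with control shRNA and 0.08, 0.02 and -0.14 with SHCBP1 shRNA. Its groups overlapped too, with a difference of 0.01 (95% interval -0.13 to 0.15; limma, Benjamini-Hochberg adjusted p = 0.927). Whether KRT5, KRT23 or KRT7 is expressed in these cells cannot be told from centred values. Their intervals bound the change of the signal and say nothing of its source.

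**Figure D2:**
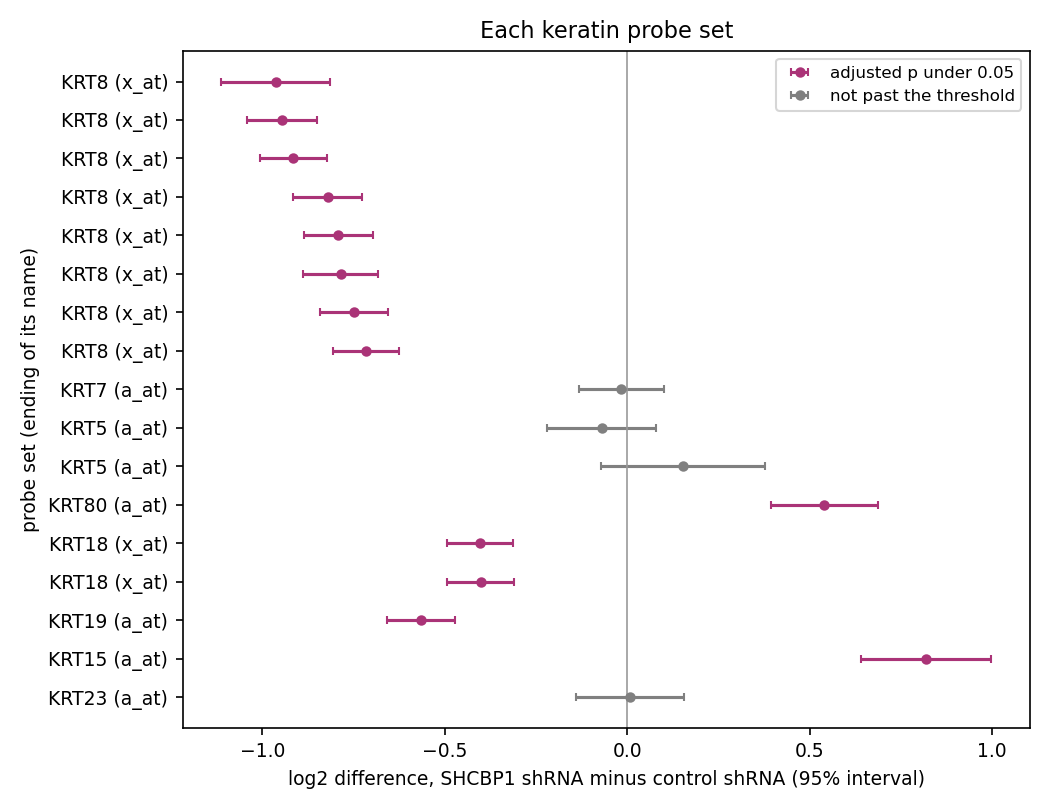
Log2 difference of each of the 17 keratin probe sets (x axis, SHCBP1 shRNA minus control shRNA, with 95% intervals from limma), labelled by gene and by the ending of the probe set's name. All 8 KRT8 and both KRT18 probe sets and the KRT19 probe set lie below 0, those of KRT15 and KRT80 lie above 0, and the 4 probe sets of KRT7, KRT5 and KRT23 have intervals that include 0; spike-in scaling moves every point down by 0.43.

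By probe set, 11 of the 17 were lower and 2 higher, where 18.1% and 19.9% of all probe sets were called in those directions. KRT8 alone supplied 8 of the 11. For KRT17, 4 probe sets are annotated to its pseudogenes, 3 to KRT17P5 and 1 to KRT17P2. None of the 4 passed (limma, Benjamini-Hochberg adjusted p from 0.397 to 0.991, with 0 at an unadjusted p under 0.05), and no value for KRT17 was taken from them.

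Keratin genes lie in a type II cluster on chromosome 12, which ends with KRT8 and the type I gene KRT18, and a type I cluster on chromosome 17. In RefSeq (GRCh38.p14, used for order) KRT8 and KRT18 are next to each other, and the annotated spans of both genes overlap. KRT15 and KRT19 are next to each other among the tested genes, and they moved in opposite directions. KRT15 minus KRT19 within an array was -0.78, -0.82 and -0.62 with control shRNA and 0.65, 0.72 and 0.57 with SHCBP1 shRNA. The shift was 1.38 on the log2 scale. As KRT15 rose and KRT19 fell, each without overlap of the groups, this difference had to separate the groups fully. The exact two-sided permutation p = 0.1, the smallest possible here, was therefore fixed in advance and adds no support. KRT80 and KRT7 are likewise neighbours among the tested genes, at 0.54 and -0.02. Of the 20 tested genes within 2 places of one of the 8 keratins and not among them, 2 were higher, 2 were lower and 16 did not pass. Among all genes 41% passed.

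**Figure D3:**
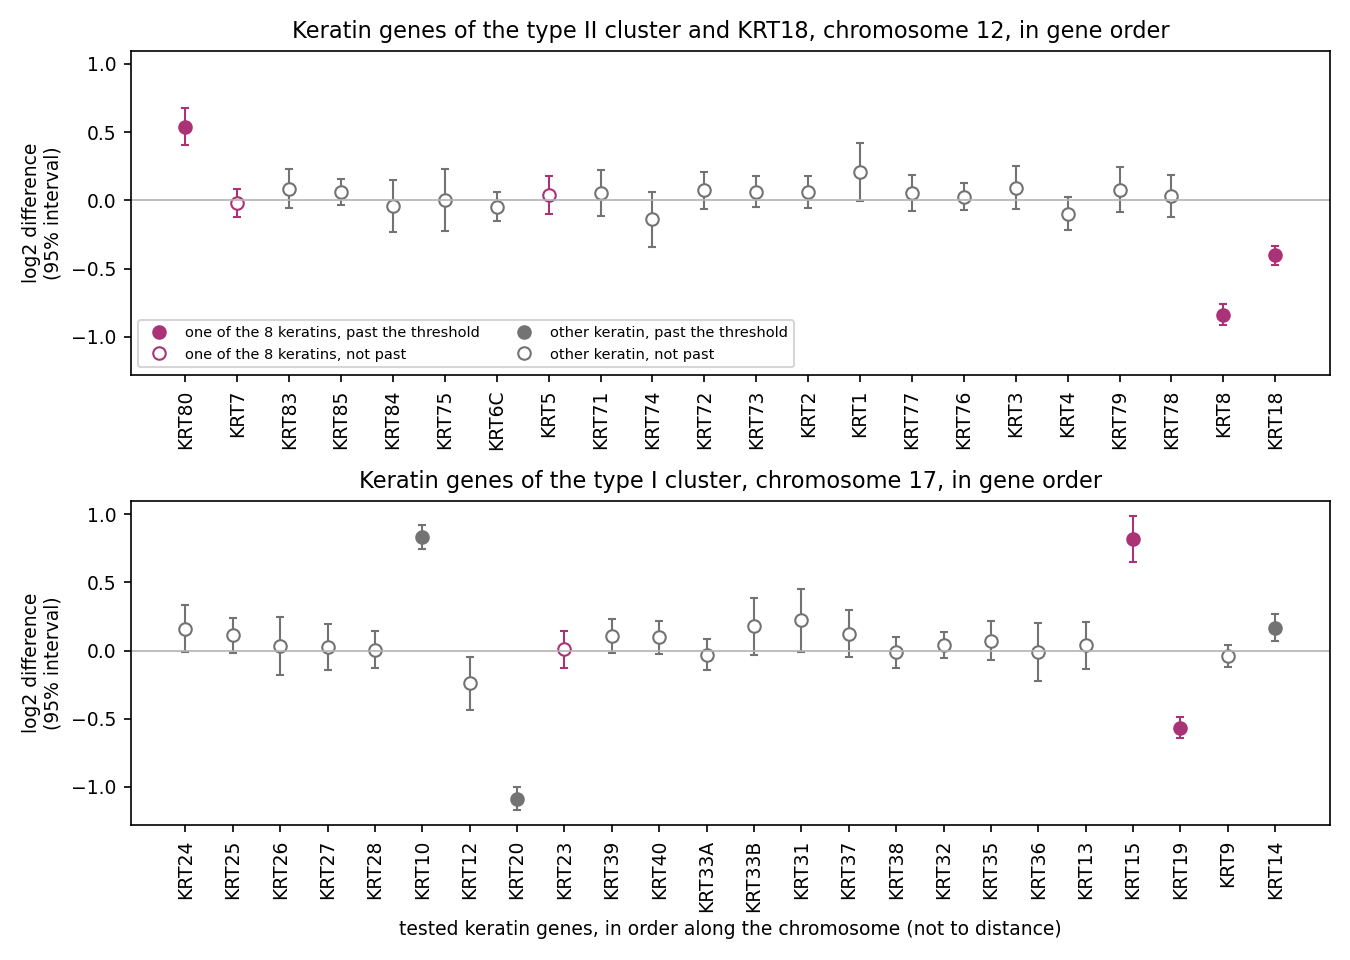
Log2 difference (y axis, SHCBP1 shRNA minus control shRNA, with 95% intervals from limma) of every tested keratin gene, placed in chromosomal order on chromosome 12 (22 genes) and chromosome 17 (24 genes), with filled points past an adjusted p of 0.05. Most keratins lie near 0, and the filled points at KRT80, KRT8, KRT18, KRT10, KRT20, KRT15, KRT19 and KRT14 include both directions; with spike-in scaling every point is 0.43 lower.

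For 2 of the 9 genes the RefSeq promoter table (GRCh38.p14) holds an entry, KRT8 and KRT5, a type II chain that fell and one that did not pass. The 250 bases before the listed start are shown for both, from chr12:52926470-52926719 and chr12:52520395-52520644, each on the minus strand. The listed KRT8 start lies inside the gene's annotated span, so it is not the outermost start. Capitals mark CACCC, the box read by Krüppel-like factors, and GGAAG, an ETS-factor core, on either strand.
KRT8: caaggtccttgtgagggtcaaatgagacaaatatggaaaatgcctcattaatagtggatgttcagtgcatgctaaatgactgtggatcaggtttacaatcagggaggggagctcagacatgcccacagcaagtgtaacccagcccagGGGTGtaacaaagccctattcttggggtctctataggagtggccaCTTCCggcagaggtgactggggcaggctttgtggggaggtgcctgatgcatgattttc
KRT5: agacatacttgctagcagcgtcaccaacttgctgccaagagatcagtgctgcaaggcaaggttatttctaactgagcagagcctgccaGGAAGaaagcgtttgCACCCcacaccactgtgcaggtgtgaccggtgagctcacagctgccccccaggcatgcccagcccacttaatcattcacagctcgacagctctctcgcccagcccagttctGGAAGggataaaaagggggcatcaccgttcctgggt
Both windows hold the CACCC box, found in 54.7% of 35116 such windows, and the ETS core, found in 65.1%. Neither holds the GC box GGGCGG (42.6% of windows), the AP-1 site TGANTCA (6.57%) or the TATA box TATAAA (10.7%), searched on both strands with overlaps allowed. These letters are common, so a match describes the window and no binding was measured. Only the spellings given were searched, so a near spelling such as GATAAAA in the KRT5 window was not counted.

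The remaining keratins were mostly not called. Of 38 tested out of 45 listed, 2 rose, 1 fell and 35 did not pass, against 41% of all genes called; with spike-in scaling 13 of 14 other type II, 10 of 11 other type I and 12 of 13 hair keratins were lower, beside 89.7% of all genes. KRT20, the type I keratin of intestinal and urothelial lining, fell furthest. Its values were 0.52, 0.54 and 0.55 with control shRNA and -0.53, -0.52 and -0.60 with SHCBP1 shRNA, a log2 difference of -1.09 ± 0.04 (SE; limma, Benjamini-Hochberg adjusted p = 1.14e-06). KRT10, the type I chain of suprabasal epidermis, rose by 0.83 ± 0.04 (SE), and the basal chain KRT14 rose by 0.17 ± 0.04 (SE), each from 1 probe set; the rise of KRT14 is smaller than the shift of the spike-in controls. The largest size among the 35 that did not pass was 0.24. No tested type II keratin other than KRT8 and KRT80 was called by limma; among the 14 other type II genes and the 13 hair keratins 0 had an unadjusted p under 0.05.

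Other intermediate filament genes split as well, with 2 of 15 higher and 3 lower, where 22% of all genes were higher and 19% lower. With spike-in scaling 14 of 15 were lower, beside 89.7% of all genes. They include vimentin and the nuclear lamins. LMNB1 rose by 0.48 and LMNB2 fell by 0.58, and BFSP1, a lens filament gene, fell by 0.40. DES, the muscle filament gene, rose by 0.17. Vimentin (VIM, chosen after its value was seen), the mesenchymal filament that often replaces keratins, had a difference of 0.06 and did not pass (limma, Benjamini-Hochberg adjusted p = 0.257). The groups of VIM did not overlap, with the SHCBP1 shRNA arrays higher, but its 2 probe sets differed in sign, at -0.04 and 0.17.

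Of 10 genes that anchor keratin filaments, 5 fell and 1 rose, with a median log2 difference of -0.16, where 19% of all genes fell and 22% rose; with spike-in scaling all 10 were lower, beside 89.7% of all genes. The plakins PLEC and PPL fell by 0.30 and 0.28, and the desmosomal plaque gene PKP3 by 0.29. EPPK1, which encodes the keratin-binding epiplakin, rose by 0.26. Desmoplakin (DSP, chosen after its value was seen), the main link of keratin to desmosomes, is among the 4 that did not pass.

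Of 10 keratin-binding partners 3 fell and 1 rose, with a median of -0.03, where 19% of all genes fell and 22% rose. With spike-in scaling all 10 were lower, beside 89.7% of all genes. SFN, a 14-3-3 protein that binds KRT17 and KRT18, fell by 0.74. CSNK1A1 and FAM83H, a casein kinase and the protein that brings it to keratin filaments, fell by 0.47 and 0.28. The 11 probe sets of CSNK1A1 ranged from -1.03 to -0.13. PNN, a splicing-related protein reported at desmosomes, rose by 0.13, although its 6 probe sets ranged from -0.22 to 0.30.

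Of 13 transcription factors known from the control of epithelial and keratin genes, 6 fell and 3 rose, with a median of -0.08. Among all genes 19% fell and 22% rose. With spike-in scaling 11 were lower and 2 higher, beside 89.7% and 2.43% of all genes. The ETS factor gene EHF fell by 1.07 and the Krüppel-like factor genes KLF5 and KLF4 by 0.92 and 0.87. OVOL2, a repressor that keeps epithelial identity, rose by 0.84. GRHL3, chosen after its value was seen as the next in size, is a grainyhead-like factor gene of surface epithelia and rose by 0.75. The 8 probe sets of EHF ranged from -1.59 to -0.66.

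Markers of cell lineage give the setting of these changes. Across all genes 41% passed limma's adjusted test, 22% higher and 19% lower. With spike-in scaling 89.7% of all genes were lower and 2.43% higher. These are the shares to set beside each marker count that follows. Of 10 epithelial markers 4 fell and 0 rose by limma's adjusted test (5 and 0 at an unadjusted p under 0.05), led by the claudin genes CLDN7 (-0.62) and CLDN4 (-0.32), ESRP1 (-0.30) and the cadherin gene CDH1 (-0.11), and with spike-in scaling all 10 were lower. Of 10 mesenchymal markers 0 passed limma's adjusted test and 1 had an unadjusted p under 0.05, and with spike-in scaling all 10 were lower. Among 9 thyroid markers FOXE1 alone was called, 0.24 higher, and with spike-in scaling all 9 were lower. Among 9 intestinal markers LGR5 and CDX2 were called, 0.58 and 0.12 higher, and with spike-in scaling 8 were lower and 1 higher. Centred values leave no level of any of these markers, so neither TPC-1 nor DLD1 could be checked, and their part in the keratin changes was not tested.

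**Figure D4:**
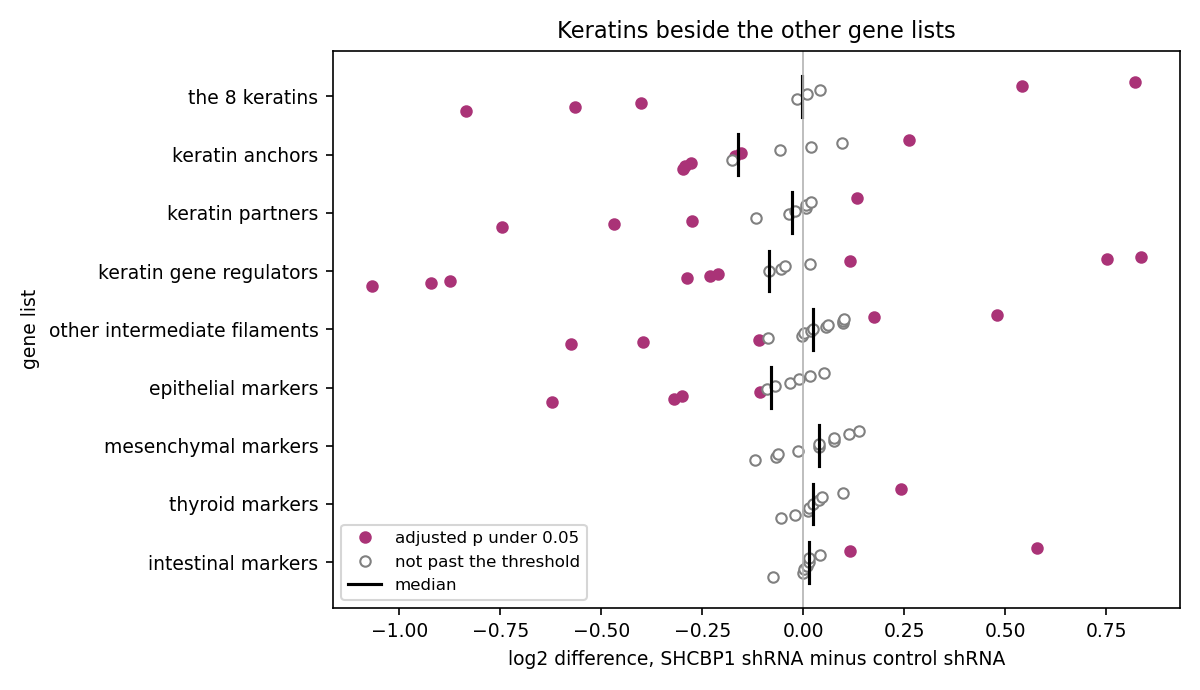
Log2 difference of each tested gene (x axis, SHCBP1 shRNA minus control shRNA) in the 8 keratins and 8 other gene lists, with filled points past an adjusted p of 0.05 and a black line at each list's median. The keratins reach from -0.84 to 0.82 around a median near 0, and the anchor list has the lowest median at -0.16; with spike-in scaling every point is 0.43 lower.

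The genes most like KRT8 and KRT18 over the 6 arrays were named by the smallest distance between their centred values, the square root of the summed squared differences. For KRT8 they were ADAM17 (0.03), GLO1 (0.03) and FOXQ1 (0.03), a surface protease, glyoxalase I and a forkhead factor, with log2 differences of -0.82, -0.83 and -0.84. For KRT18 they were TUBB (0.02), ARAP1 (0.02) and PERP (0.03), a tubulin, a GTPase-activating protein and a desmosome-associated p53 target, with -0.40, -0.42 and -0.42. KRT18 was not among the 3 nearest to KRT8. With 3 arrays per group this distance mainly reflects the size of the group difference.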

How the data were processed

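The authors deposited 1 log2 value per probe set and array, made with RMA per the submitters' processing notes; its software version and log base are not stated there, and log2 is the scale RMA gives. Every probe set has a median of 0 over the 6 arrays, so the values were centred before deposit, no filter on dim probe sets was possible, and brightness is unknown. Of 49395 probe sets, 102 are Affymetrix controls and 44988 carry 1 symbol in the platform annotation; 1832 with several symbols and 2473 unnamed here were left out of the gene tests. Probe sets of a gene were averaged.

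The SHCBP1 shRNA group was set against the control shRNA group in limma 3.58.1 (R 4.3.3; lmFit, then eBayes) without pairing. P-values were adjusted by Benjamini-Hochberg across the 18132 genes, or across the 49293 probe sets, with a threshold of 0.05. Errors of gene and probe set differences are moderated standard errors. The control probe sets were not among those tested, so the error of the spike-in shift is not a moderated one. The code was tested on simulated data. All keratins listed are named, with up to 4 called genes per list and the 3 nearest genes of KRT8 and KRT18. Keratins and lists were chosen with earlier results of these data known. Arrays of a group differed with an SD of 0.105 to 0.111 and none repeats another. Alternatives were other scalings, array weights, robust moderation, a replicate block, the median of probe sets, fewer probe sets, a filter on range and each array left out; 3 arrays per group limit the precision.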

Additional observations from a re-analysis of the deposited data

How the results depend on the processing

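Among the 8 keratins, spike-in scaling was the one alternative run that changed a gene's call where the gene still had a value. Under it 1 keratin gene and 1 probe set were higher and 6 genes were lower; KRT5 stood at -0.39 and KRT23 at -0.42, both past the threshold and on the other side of 0, KRT7 at -0.45 passed, and KRT80 at 0.11 did not. Leaving out _s_at and _x_at probe sets removed KRT8 and KRT18, so 1 keratin gene was lower by construction. Leaving out each array in turn kept 2 genes higher and 3 lower, and 2 probe sets higher and 11 lower; KRT8 ran from -0.84 to -0.82, KRT18 from -0.41 to -0.40, KRT19 from -0.58 to -0.55, KRT15 from 0.77 to 0.90 and KRT80 from 0.50 to 0.58. The deviations of same-numbered arrays had correlations of 0.02, -0.05 and 0.07, and those of differently numbered arrays ran from -0.10 to 0.08. This gave no sign of pairing by number, but 3 arrays per group cannot exclude it. With the replicate number as a block 2 keratin genes were higher and 3 lower, and 7092 genes were called in place of 7440. The block raised the falls among other type I keratins from 1 to 2 and moved no other list count by over 1.5 times. The filter on range removed KRT7 and gave it no value. KRT8 changed more than KRT15 in size under 10 of 14 alternatives and less under 4 (-0.77 against 0.91 with repeated quantile normalization).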

Other observations

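Keratin-associated protein genes, which encode the matrix around hair keratins and lie partly inside the type I cluster, were examined after the keratins. Of 82 tested, 5 rose, 2 fell and 75 did not pass limma's test with Benjamini-Hochberg adjustment. Among all genes 41% were called, 22% higher and 19% lower. KRTAP3-1 was far apart from the rest, with values of -0.74, -0.70 and -0.66 with control shRNA and 0.69, 0.69 and 0.67 with SHCBP1 shRNA, a rise of 1.39 ± 0.03 (SE; limma, Benjamini-Hochberg adjusted p = 4.20e-07). Its 2 probe sets rose by 1.11 and 1.67, the second of them ending in _s_at. No other gene of the family exceeded 0.31 in size. That is less than the 0.43 shift of the spike-in controls, so the other rises fall below 0 with spike-in scaling.

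KRT10 overlaps an antisense gene on the array, KRT10-AS1. One probe set of KRT10-AS1 rose by 0.72 ± 0.07 (SE) and the other, at 0.12, did not pass (limma, Benjamini-Hochberg adjusted p = 0.314 over all probe sets).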
